A study of Rattus norvegicus with 28 samples.

Results

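Imipramine and Zoloft (sertraline) are both antidepressants, and the hippocampal transcriptome of injured rats given one was compared with that of injured rats given the other. The 6 gene expression arrays whose titles read TBI+Imipramine (3 arrays) or TBI+Zoloft (3 arrays) were taken from the 28 arrays of the series, of which the remaining ones are gene expression arrays of other groups and microRNA arrays. The rats were adult male Sprague-Dawley rats subjected to severe fluid-percussion traumatic brain injury (TBI) by a pressure pulse onto the dura. Each drug was injected into the peritoneum 1 h after the injury, all drugs at the same dose, and the whole hippocampus was collected 24 h after the injury. The values below are also set beside those of 3 arrays labelled TBI (injury without drug), 3 labelled TBI+Prozac (injury and fluoxetine) and 2 labelled Sham (no injury), all at 24 h. All injured groups shared the injury, and no group received a drug without injury. The titles number each array separately and the methods count rats per group, so each array was taken as 1 rat.

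Imipramine is a tricyclic, which blocks the transporters that take serotonin and noradrenaline back into the neuron and also binds histamine, muscarinic and alpha-1 adrenergic receptors. Zoloft and Prozac are selective serotonin reuptake inhibitors (SSRIs), which act mainly on the serotonin transporter. The cell bodies that make these transporters lie in the brainstem, while the hippocampus holds their axons and the receptors. In the day after an injury the hippocampus also holds activated microglia, infiltrating macrophages and lymphocytes, reactive astrocytes and dividing glia. In whole tissue, fewer cells of a type and less RNA per cell cannot be told apart.

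Levels are log2 of a probe's signal over the 75th percentile of the array's detected probes (those above background), so that 0 is a bright probe and most genes lie below it. Of 30367 probes, 17322 were kept, and 15426 of these were above background on all 6 arrays. The 6 arrays had between 15846 and 18196 probes above background and no saturated spot. Hippocampal and glial markers such as Snap25, Fibcd1, C1ql2, Gfap, Aif1 and Mbp were above background on all 6 arrays, whereas Prox1, a granule cell factor, and Drd1, a striatal receptor, were above background on none. All 6 arrays were on 1 slide, in separate rows in part: imipramine arrays 1 and 2 lay in its first row with 2 Prozac arrays, and imipramine array 3 lay in its second row with the 3 Zoloft arrays. Row and drug therefore overlap, and imipramine array 3 is given beside the results for that reason. The TBI arrays and Prozac array 1 lay on a different slide, and the Sham arrays on yet another. Differences of imipramine and Zoloft from TBI or Sham therefore cannot be told apart from slide.

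A further feature set the Zoloft arrays apart. For the 1554 genes with several kept probes, the median difference between a gene's dimmest and brightest probe was -2.08, -2.06 and -2.05 on the log2 scale on the 3 Zoloft arrays. On the imipramine arrays it was -1.91, -1.88 and -1.90, on the Prozac arrays -1.80, -1.88 and -1.89, and on the TBI arrays -1.92, -1.94 and -1.94. Every Zoloft array thus had a wider gap than the other 9 injured arrays, imipramine array 3 of the same slide row included, while the Sham arrays lay at -2.04 and -2.05. The part of this gap in the results below was not tested, and where probes of a named gene differed in passing, the values of both are given.

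In the fit across all 14 arrays, 917 probes (5.29% of 17322) passed an adjusted p of 0.05 between imipramine and Zoloft, and nearly all lay on the imipramine side. The 910 probes higher after imipramine (5.25%) differed by 0.39 to 4.44 on the log2 scale, with a median of 0.72. The 7 probes lower after imipramine (0.0404%) included Tpbg and Pdyn. The 649 passing probes with a symbol named 634 genes. The median difference over all kept probes was 0.18, which follows from the scaling, so the differences below are to be read against 0.18 and not against 0. The p values below nevertheless test against 0, so they include this shift. Counts with each array centred on its median are given below. Without adjustment 4096 probes (23.6%) had a p under 0.05. The values of the 2 groups did not overlap for 5162 probes (29.8%), 26.6% of all probes lying wholly higher and 3.16% wholly lower after imipramine.

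The number of passing probes moved widely with the processing and with single arrays. With each array centred on its median, 54 probes passed, 45 of them higher after imipramine, and with quantile normalization 137 passed, 114 of them higher. Leaving out imipramine array 1 left 1 probe (Cnpy3, log2 difference 1.19) and leaving out imipramine array 2 left 0, with 2629 at an unadjusted p under 0.05. Leaving out Zoloft array 2 left 57 and Zoloft array 3 left 571, whereas 1306 passed without imipramine array 3 and 1211 without Zoloft array 1. The 6 arrays fitted alone gave 0 probes, with 4128 at an unadjusted p under 0.05, and with the slide row as a block 1 probe passed, with 938 at an unadjusted p under 0.05. Nearly all calls were thus lost without imipramine array 1 or 2, or without the spread estimated over all 14 arrays. On imipramine array 3 alone the 910 probes had a median of 0.56 above the Zoloft mean and each was above it, a description only, since that array took part in choosing them.

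**Figure D1:**
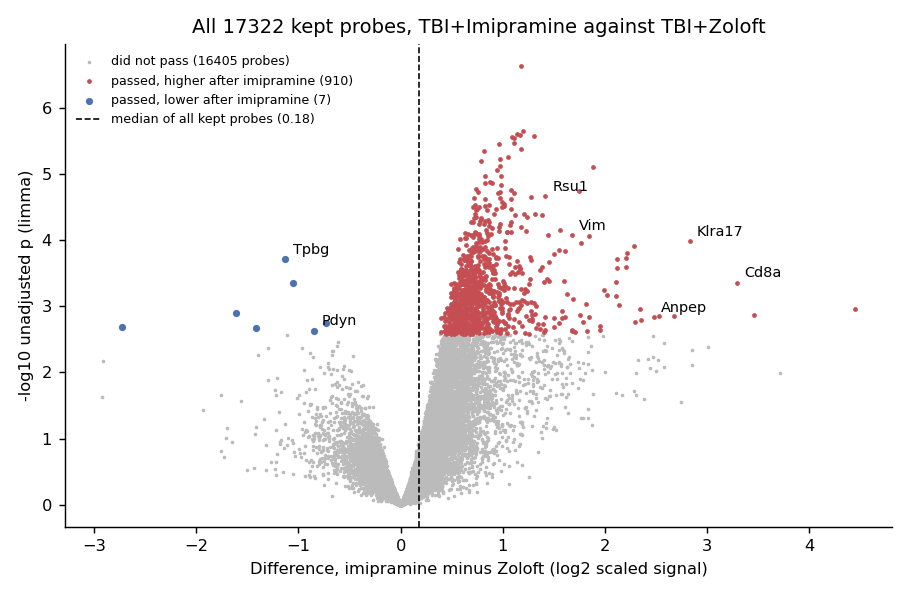
Log2 difference between imipramine and Zoloft (x axis) against -log10 of the unadjusted p (y axis) for 17322 probes, with 910 probes higher after imipramine in red, 7 lower in blue and the median of all probes, 0.18, as a dashed line. The passing probes lie almost wholly to the right of that line.

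At most of these probes Prozac lay nearer to imipramine than to Zoloft. These comparisons share arrays with the one above, so their values are given side by side only. Prozac arrays 2 and 3 lay in the slide row of imipramine arrays 1 and 2, and every Zoloft array lay in the other row. The nearness of Prozac to imipramine therefore overlaps with slide row, whose part in it was not tested. Over the same 910 probes the median was 0.13 for imipramine minus Prozac and 0.61 for Prozac minus Zoloft, and the Prozac mean lay nearer to imipramine than to Zoloft for 802 of them. Against TBI without drug the medians were 0.36 for imipramine and -0.37 for Zoloft, where all kept probes had medians of 0.20 and 0.01. In the same fit 1 probe (0.00577%) passed between imipramine and Prozac, a probe of C9h6orf141 (adjusted p = 0.0480) that was above background on the 3 imipramine arrays and on none of the other 11, with 1197 at an unadjusted p under 0.05. Against Zoloft this probe was at least 2.44-fold higher (adjusted p = 0.0152), and the brighter probe of the gene differed by 1.55 ± 0.45 without passing (adjusted p = 0.0624). Between Prozac and Zoloft, the 2 SSRIs, 639 probes (3.69%) passed, 625 of them (3.61%) higher after Prozac. Imipramine differed from TBI at 494 probes (2.85%), 2.82% of all being higher after imipramine, with 19.7% at an unadjusted p under 0.05. Zoloft differed from TBI at 239 probes (1.38%, 1.16% higher), with 15.2% at an unadjusted p under 0.05. The TBI arrays lay on another slide than both of these drug groups, so drug and slide cannot be told apart in these counts.

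Genes of macrophages and microglia were among those higher after imipramine, and for several of them the imipramine group also lay above Prozac and above TBI without drug. With the arrays centred on their median, Msr1, Anpep, Clec4a1 and Folr2 did not pass (adjusted p = 0.099, 0.088, 0.085 and 0.107). Msr1, the macrophage scavenger receptor that takes up modified lipoproteins and cell debris, was at -2.23, -1.94 and -2.61 on the imipramine arrays and at -3.36, -3.53 and -3.61 on the Zoloft arrays. The groups did not overlap, and the log2 difference was 1.24 ± 0.27 (SE, n = 3 and 3, adjusted p = 0.0283). Msr1 was at -4.01 after Prozac, -4.31 after TBI alone and -8.14 in Sham (means), and imipramine passed against TBI as well, with 2.05 (adjusted p = 0.0069). Zoloft was 0.81 above TBI for this gene (adjusted p = 0.16), so both drug means lay above the untreated injured mean.

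Anpep, aminopeptidase N of myeloid cells and vessel walls, had the largest difference among passing genes above background on all 6 arrays. Its levels were -2.50, -2.40 and -3.94 after imipramine and -5.41, -5.74 and -5.13 after Zoloft, a log2 difference of 2.48 ± 0.61 (adjusted p = 0.0392), or 2.30 above the median of all probes. Imipramine array 3 lay well below the other 2 but still above each Zoloft array. Prozac was at -4.24 and TBI at -4.99. Clec4a1, a C-type lectin of myeloid cells, likewise had imipramine array 3 lowest of its group, with -0.32, -0.33 and -1.30 against -1.92, -2.53 and -2.24, a difference of 1.58 ± 0.38 (adjusted p = 0.0367). Folr2, the folate receptor of tissue-resident macrophages, was at -0.56, -0.45 and -1.05 against -1.45, -2.34 and -2.24, a difference of 1.32 ± 0.34 (adjusted p = 0.046). Ceacam4 (1.45 ± 0.28, adjusted p = 0.021) and the phospholipase-like Pld4 of microglia (1.31 ± 0.32, adjusted p = 0.038) passed as well. For Clec4a1 and Folr2 the Prozac and TBI means, -1.80 and -1.57 for Clec4a1 and -1.54 and -1.33 for Folr2, lay between the 2 drugs.

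Of 27 measured genes in the microglia and macrophage list, 4 passed, all higher after imipramine. These were Msr1, Csf1r, the receptor that keeps microglia alive, Arg1, the arginase of alternatively activated macrophages, and Cybb, the catalytic subunit of the phagocyte NADPH oxidase. The list had a median of 0.54, which is 0.37 above the median of all probes, and 14 of its genes did not overlap (51.9%, where 27.5% of all genes with a symbol did not and 4.68% passed). Arg1 differed by 1.05 ± 0.26 (adjusted p = 0.0387). Its means were -0.95 after imipramine, -2.00 after Zoloft, -1.50 after Prozac, -1.51 in TBI and -1.62 in Sham. Unlike Msr1, it was thus near the Sham level in TBI without drug. Cybb was not well above background on any Zoloft array and was at least 3.22-fold higher after imipramine (adjusted p = 0.0412), where a bound sets the imipramine mean against the lowest signal that counts as above background. Only the imipramine group had Cybb above background on all its arrays, so it was kept through the group in which it was high. Csf1r differed by 0.79 ± 0.19 (adjusted p = 0.0379) and by as much between Prozac and Zoloft (0.84, adjusted p = 0.038). A second, dimmer probe of Csf1r differed by 1.18 but did not pass. The mean over the list was -0.48, -0.42 and -0.90 on the imipramine arrays and -1.13, -1.30 and -1.20 on the Zoloft arrays, with TBI between -1.21 and -0.98 and Sham at -2.78 and -2.31. Every imipramine array lay above every Zoloft array, and the Zoloft arrays lay close to TBI. Lgals3 (1.18, adjusted p = 0.0545), Aif1 and Cx3cr1 did not pass.

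Lymphocyte genes were dim, and 2 of the 3 that passed were not well above background on any Zoloft array. The list of lymphocyte and natural killer markers was added after the values were seen, and only 4 of its 17 genes were measured, so it is given as a description. Cd8a, the co-receptor of cytotoxic T cells, was at -3.65, -3.98 and -4.36 after imipramine and at -5.65, -8.08 and -8.12 after Zoloft, where only 1 array was above background, a log2 difference of 3.29 ± 0.69 (adjusted p = 0.0259). No group but imipramine had Cd8a above background on all its arrays, so it was kept through that group alone. Cd3e, a chain of the T cell receptor complex, was at least 2.77-fold higher after imipramine (adjusted p = 0.0298). Its means were -4.63 after imipramine, -4.70 after Prozac, -5.28 in TBI and -4.96 in Sham. Zoloft was the only group without Cd3e above background, so here Zoloft stood apart, and Prozac passed against Zoloft as well (adjusted p = 0.039). Klra17, a killer cell lectin-like receptor, was at least 2.76-fold higher after imipramine (adjusted p = 0.0165) and was above background on the 3 imipramine arrays only of the 14, so it was kept through the group in which it was high. Kpna3, a carrier of nuclear import, was at least 2.51-fold higher after imipramine than after Zoloft and was likewise above background on no array of another group. Mboat1, a lysophospholipid acyltransferase, was above background on all 6 arrays and differed by 1.32 ± 0.31 (adjusted p = 0.034). Cd3d, another chain of the same receptor complex as Cd3e, differed by only 0.26 ± 0.20 (adjusted p = 0.46). Cd3e and Cd3d thus did not move together.

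Chemokines and cytokines did not pass: 0 of 35 measured did, with a median of 0.32. Those nearest to the threshold included Ccl12, a chemokine that draws in monocytes (2.47 ± 0.66, adjusted p = 0.0512), Il1b, the inflammatory interleukin (1.40 ± 0.44, adjusted p = 0.0786), and Ccl4 (1.25 ± 0.38, adjusted p = 0.0715). Cxcl10, an interferon-induced chemokine, lay on the Zoloft side (-1.32 ± 0.80, adjusted p = 0.345). Complement (16 measured, median 0.19) and interferon-stimulated and antigen presentation genes (28 measured, median 0.29) also had 0 passing. Their medians lay near that of all probes.

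Lysosomal genes went the same way as the macrophage genes. Cationic amphiphilic drugs, the chemical class of imipramine and sertraline, gather in lysosomes, and the list was included for that reason. Of 32 measured, 5 passed, all higher after imipramine, with a median of 0.34 and 14 not overlapping (43.8%), where 4.68% of all genes passed and 27.5% did not overlap. Gm2a, the activator of ganglioside breakdown, was at -2.20, -2.33 and -2.56 after imipramine and at -3.40, -3.41 and -3.31 after Zoloft (1.01 ± 0.22, adjusted p = 0.0282). Gpnmb, a glycoprotein of lipid-laden macrophages, was at 2.14, 2.06 and 1.57 against 0.97, 0.63 and 0.62 (1.18 ± 0.27, adjusted p = 0.033). The groups did not overlap for either gene. The cathepsin Ctsz (1.05), the hexosaminidase subunit Hexa (0.68) and Grn, progranulin (0.57 at one probe, 0.50 and not passing at the other), passed with smaller differences. Prozac means lay between the drugs for Gpnmb (1.16) and Ctsz (-1.13).

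Ctbs, a lysosomal chitobiase outside that list, showed the reverse placement of the groups. It was at -2.39, -2.98 and -3.20 after imipramine and at -4.33, -4.59 and -4.94 after Zoloft, a log2 difference of 1.76 ± 0.32 (adjusted p = 0.0168). Prozac (-2.98), TBI (-2.99) and imipramine were alike in mean, and Zoloft lay below TBI by 1.63 (adjusted p = 0.033) and below Prozac by 1.64 (adjusted p = 0.022). The probe passed under all 4 other scalings as well.

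**Figure D2:**
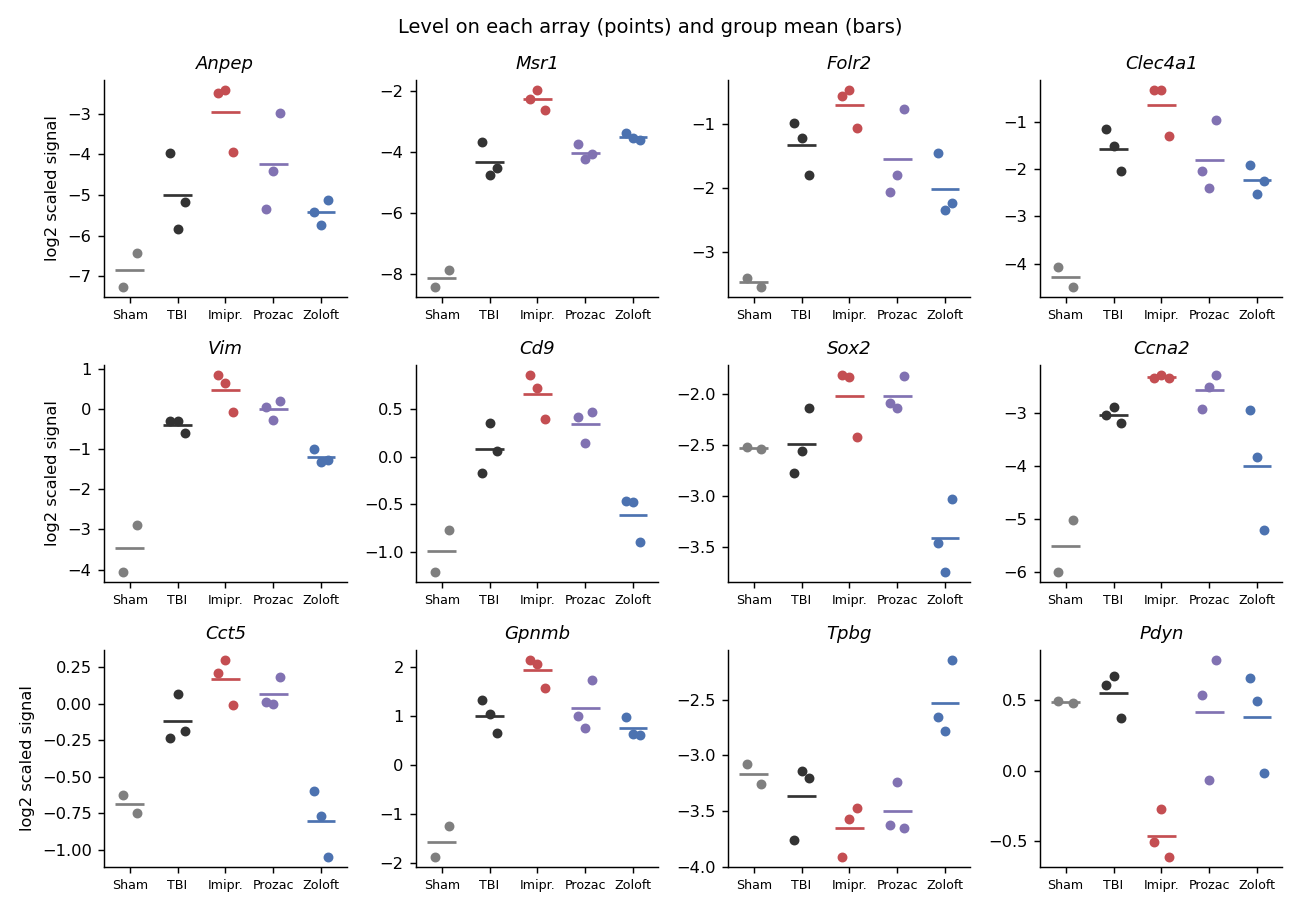
Log2 scaled signal (y axes) of 12 genes on every array, with points for arrays and bars for group means in Sham, TBI, imipramine, Prozac and Zoloft. Imipramine stands above the other injured groups for Msr1, with means of -2.26 against -3.50, -4.01 and -4.31, whereas Zoloft stands below them for Sox2 and Cct5, and Tpbg is highest after Zoloft.

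Genes of cell division lay on the imipramine side. The cell cycle list was added after the values were seen and carries no test of its own. Of 41 measured genes, 13 passed, all higher after imipramine, and 34 did not overlap (82.9%, against 27.5% of all genes with a symbol, of which 4.68% passed). With the arrays centred on their median, none of the 13 passed. The median was 1.09, and each of the 41 lay above the median of all probes. The mean over the list was -2.69, -2.66 and -2.79 on the imipramine arrays and -3.17, -3.72 and -4.76 on the Zoloft arrays. The imipramine arrays were close to each other and the Zoloft arrays were spread, with Zoloft array 3 near the Sham arrays (-5.17 and -4.49) and Zoloft array 1 near TBI (-3.34, -3.09 and -3.45). Prozac lay at -3.11, -2.92 and -2.67. The list's lead held on imipramine array 3, which lay above each Zoloft array.

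Ccna2, the cyclin of S phase, was at -2.33, -2.28 and -2.33 after imipramine and at -2.94, -3.84 and -5.22 after Zoloft (1.68 ± 0.44, adjusted p = 0.0473). Its other probe differed by 1.40 without passing. Ccnd1, the cyclin that starts the cycle, was at -1.42, -1.37 and -1.84 against -2.32, -2.66 and -3.35 (1.23 ± 0.28, adjusted p = 0.0328). In both genes Zoloft array 3 was lowest. Genes of mitosis were close to background after Zoloft. Cenpf, a kinetochore protein, was at least 2.18-fold higher after imipramine (adjusted p = 0.0181), Ccnb2, a mitotic cyclin, at least 2.26-fold (adjusted p = 0.0468), Aurkb, the mitotic kinase, at least 1.90-fold (adjusted p = 0.0189), and Ska1, which ties the kinetochore to microtubules, at least 1.58-fold (adjusted p = 0.0255). Cenpf was kept through the imipramine group alone, since no other group had it above background on all its arrays. Hmgb2, a chromatin protein of dividing cells, differed at both of its probes, by 1.14 and 0.95. Smc4 (1.25), Cdc20 (1.11), Prc1 (1.02), Kif23 (0.99) and Spc25 (0.94) passed as well. Chek2, at least 1.56-fold higher after imipramine, also passed and was above background on no Zoloft array.

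Promoters of cell cycle genes commonly carry CCAAT boxes and a TTTGAA or TTTAAA element, and the promoters of 2 of these genes are shown because their genes were at background on every Zoloft array and above it on every imipramine array. They are the 250 bases before the RefSeq start site, in the GRCr8 rat assembly, read along the gene, with CCAAT (or its reverse complement ATTGG) and TTTGAA or TTTAAA in capitals.
Ccnb2, chr8:79981659-79981908, minus strand: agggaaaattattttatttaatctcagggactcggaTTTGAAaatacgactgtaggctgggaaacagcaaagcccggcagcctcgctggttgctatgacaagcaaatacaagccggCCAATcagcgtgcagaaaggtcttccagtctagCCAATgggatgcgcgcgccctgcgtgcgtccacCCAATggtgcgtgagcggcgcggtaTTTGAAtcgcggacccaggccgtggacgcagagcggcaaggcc
Cenpf, chr13:103760887-103761136, minus strand: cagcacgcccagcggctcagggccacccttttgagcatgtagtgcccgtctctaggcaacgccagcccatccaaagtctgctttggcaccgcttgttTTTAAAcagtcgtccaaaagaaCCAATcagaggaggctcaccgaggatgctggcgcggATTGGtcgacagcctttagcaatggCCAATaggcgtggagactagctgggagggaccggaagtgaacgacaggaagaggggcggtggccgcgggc

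Both promoters hold 3 CCAAT motifs counted on either strand. Of the 41 measured genes, 31 had a promoter in the RefSeq table. Of these, 22 held CCAAT on either strand (71.0%), where 34.0% of all 33469 promoters of this length did, and 8 held at least 3 (25.8%, against 2.52%). TTTGAA or TTTAAA was found in 20 (64.5%, against 25.4%). These are counts of letters in a window and do not show that a factor binds there.

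Genes of neural stem cells and Notch signalling followed in part. Of 26 measured, 3 passed, all higher after imipramine, with a median of 0.36. Of the 12 that did not overlap (46.2%, against 27.5% of all genes), 10 were higher and 2 lower after imipramine. The 3 that passed were Ccnd1, Hey1, a Notch target (0.62 ± 0.15, adjusted p = 0.0367), and Sox2, the transcription factor of neural stem cells and astrocytes. Sox2 passed at both of its probes. The dimmer one was at -1.81, -1.83 and -2.43 after imipramine and at -3.46, -3.74 and -3.03 after Zoloft (1.39 ± 0.22, adjusted p = 0.0129), and the brighter one differed by 0.76 ± 0.20 (adjusted p = 0.0477). For the dimmer probe TBI was at -2.49, Sham at -2.53 and Prozac at -2.02, so that the Zoloft mean was the lowest of the 5 groups. Prozac exceeded Zoloft by 1.39 (adjusted p = 0.016).

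**Figure D3:**
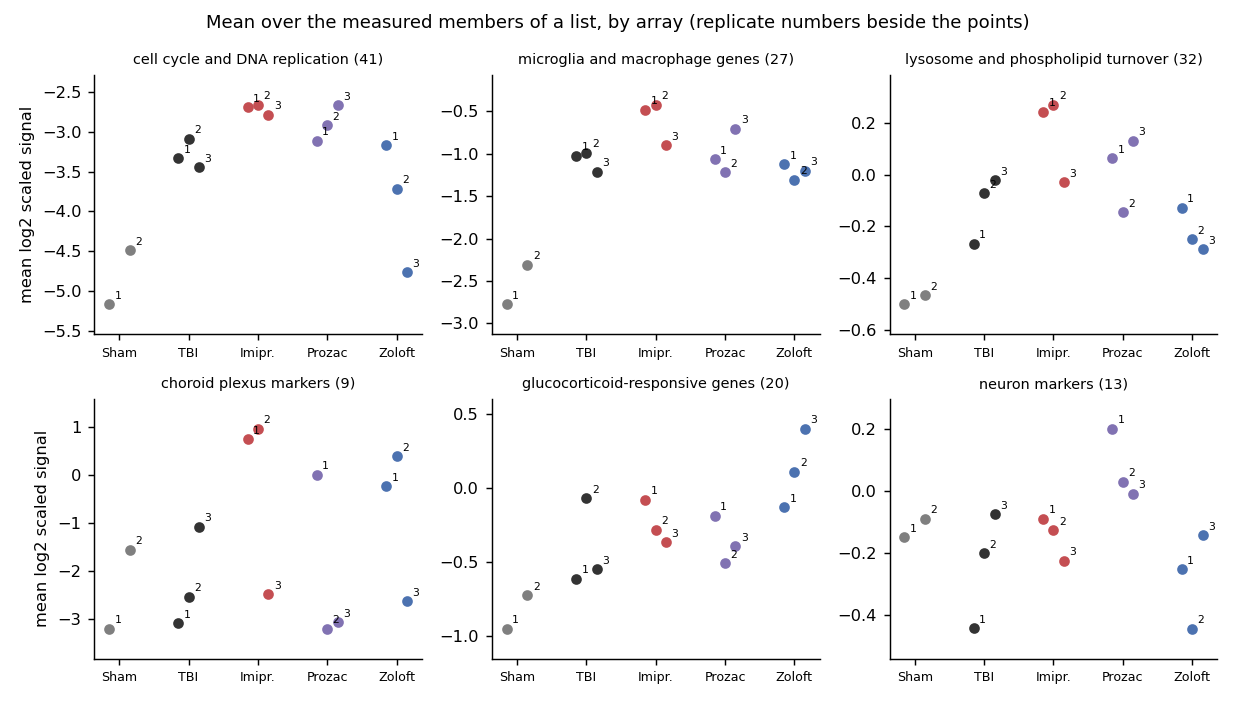
Mean log2 scaled signal (y axes) over the measured genes of 6 lists on every array, with the replicate number beside each point and the groups along the x axes. The cell cycle mean lies between -2.79 and -2.66 on the imipramine arrays and between -4.76 and -3.17 on the Zoloft arrays, and the choroid plexus mean varies between arrays of each group.

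Single chaperones and genes of protein folding passed, and Cct5 passed between Zoloft and TBI as well. The lists for the CCT chaperonin, the endoplasmic reticulum and the proteasome were added after the values were seen. The CCT chaperonin is the barrel that folds actin and tubulin, and 3 of its 8 subunits passed. Cct5 was at 0.21, 0.30 and -0.01 after imipramine and at -0.60, -0.77 and -1.05 after Zoloft (0.97 ± 0.14, adjusted p = 0.0114). Prozac was at 0.07 and TBI at -0.12, and Zoloft lay below TBI by 0.69 (adjusted p = 0.040). Cct4 (0.74) and Cct2 (0.70) passed too. The median over the 8 subunits was 0.23, near that of all probes. Of the subunits 37.5% passed and 50% did not overlap, where 4.68% of all genes with a symbol passed and 27.5% did not overlap.

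In the endoplasmic reticulum list 4 of 28 passed: Cnpy4 (0.84 ± 0.16, adjusted p = 0.0199), Ssr2 (0.57), Sec61a1, the channel through which new proteins enter (1.01), and Canx, calnexin, at least 1.32-fold higher. Canx was kept through the imipramine group alone, the group in which it was high. In the proteasome list 2 of 30 passed, Psmd14, a deubiquitinase of the lid (0.86 ± 0.13, adjusted p = 0.0123), and Psmb1 (0.58). The medians were 0.37 and 0.20. The shares that passed were 14.3% and 6.67%, where 4.68% of all genes with a symbol passed, so the proteasome share lay near it. The groups did not overlap for 60.7% and 50% of the 2 lists, against 27.5% of all genes. The list of heat shock and unfolded protein response genes had 0 of 23 passing and a median of 0.24, with Calr (0.63, adjusted p = 0.0655) and Hspb8 (0.75, adjusted p = 0.0657) nearest to the threshold.

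For Hspa8, the constitutive cytosolic chaperone, the answer depended on the probe. The promoter of this gene and that of Cct5 are shown because both belong to folding machinery that heat shock factor is known to drive, with GAANNTTC or TTCNNGAA, the paired units of its element, in capitals. They were taken from the same table and build as those above.
Hspa8, chr8:50080264-50080513, plus strand: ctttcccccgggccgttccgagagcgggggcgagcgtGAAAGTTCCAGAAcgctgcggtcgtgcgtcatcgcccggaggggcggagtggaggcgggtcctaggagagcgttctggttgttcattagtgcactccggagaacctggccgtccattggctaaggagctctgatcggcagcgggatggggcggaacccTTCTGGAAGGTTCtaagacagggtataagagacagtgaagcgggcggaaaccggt
Cct5, chr2:84313774-84314023, minus strand: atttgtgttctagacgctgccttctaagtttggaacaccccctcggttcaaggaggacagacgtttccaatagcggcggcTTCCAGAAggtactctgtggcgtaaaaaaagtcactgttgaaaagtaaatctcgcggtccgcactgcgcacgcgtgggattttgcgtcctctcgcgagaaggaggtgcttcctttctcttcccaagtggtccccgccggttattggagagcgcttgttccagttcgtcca

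The Hspa8 window holds 4 matches, which overlap in pairs, and the Cct5 window 1. Of all 33469 promoters 13.5% hold such a match, and of the 8 chaperonin subunits 2 do. Of the 4 Hspa8 probes, the dimmest was at 0.54, 0.56 and 0.17 after imipramine and at -0.70, -0.66 and -0.89 after Zoloft (1.17 ± 0.15), and the next was at 1.61, 1.81 and 1.197 against 0.32, 0.38 and 0.01 (1.30 ± 0.16, adjusted p = 0.00687). The 2 brightest differed by 0.24 ± 0.17 and 0.24 ± 0.14 and did not pass. The same gene was thus given as higher or as not passing, depending on which probe was read. Probes were joined to a gene by accession, and whether these 4 read the same RNA was not tested.

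Such differences in passing between the probes of a gene were found across the array. Of the 1554 genes with several kept probes, 188 had at least 1 passing probe, and only 11 had every probe passing. In 154 the dimmest probe passed and the brightest did not, and in 21 the reverse. The dimmest probes passed for 10.6% of these genes with a median of 0.28, the brightest for 2.06% with a median of 0.10, and the only probe of the other 8666 genes for 5.15% with a median of 0.19. For Prozac minus Zoloft the medians were 0.27, 0.06 and 0.13 in the same order. Cnpy3, which helps fold Toll-like receptors, differed by 1.18 ± 0.11 at its dim probe (adjusted p = 0.00405) and by 0.20 ± 0.12 at its bright one. Nars1, the asparaginyl-tRNA synthetase, differed by 1.09 and 0.21, and Rsu1, a partner of integrin signalling, by 1.41 and 0.51. Genes named with 1 value elsewhere in the text rest on the brightest probe when they are counted in a list.

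**Figure D4:**
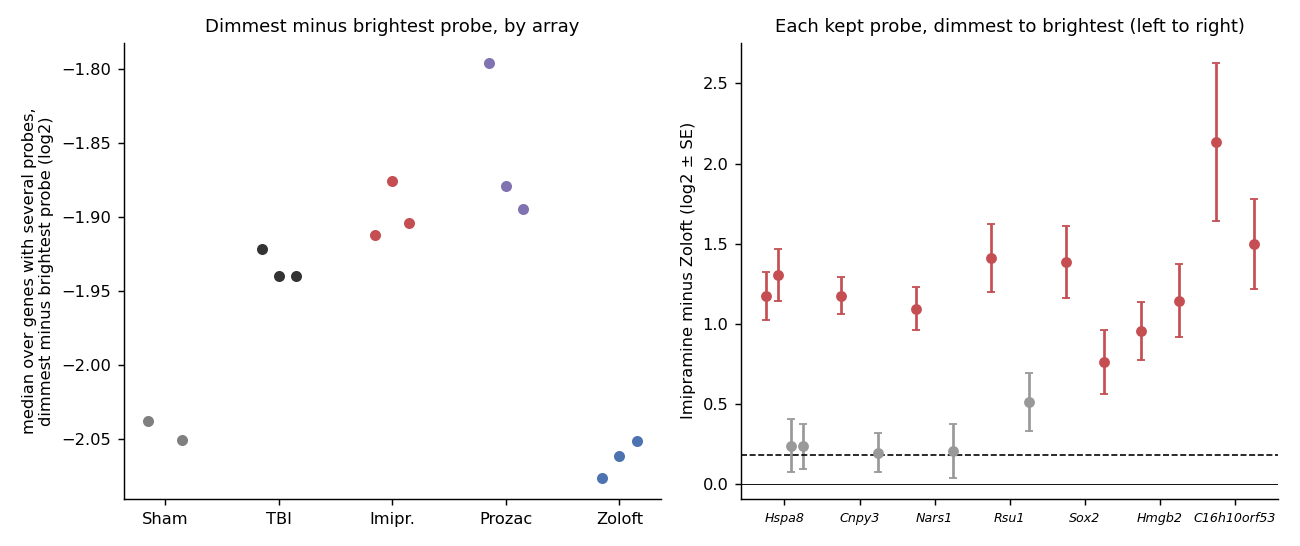
Left, the median log2 difference between the dimmest and the brightest probe of 1554 genes on each array. Right, the log2 difference between imipramine and Zoloft with its standard error for each kept probe of 7 genes, red where the probe passed and grey where it did not; the Zoloft arrays lie between -2.08 and -2.05 on the left, and for Hspa8 only the dimmer 2 of 4 probes passed.

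Among astrocyte genes only Vim passed. Vim encodes vimentin, the intermediate filament of reactive astrocytes, macrophages and vessel cells. It was at 0.87, 0.66 and -0.06 after imipramine and at -0.98, -1.31 and -1.27 after Zoloft (1.68 ± 0.29, adjusted p = 0.0152). Prozac was at 0.01, TBI at -0.39 and Sham at -3.47, and Prozac passed against Zoloft (1.19, adjusted p = 0.045). The other 18 measured genes of the reactive astrocyte list did not pass, the median was 0.20, and Steap4, an iron reductase induced by inflammation, lay on the other side (-1.01 ± 0.39, adjusted p = 0.14). Homeostatic astrocyte genes had 0 of 15 passing and a median of -0.05.

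Cd9, a tetraspanin of glia and macrophages, was at 0.86, 0.72 and 0.40 after imipramine and at -0.47, -0.47 and -0.90 after Zoloft (1.27 ± 0.19, adjusted p = 0.0115). Prozac (0.42, 0.15 and 0.47) and TBI (-0.17, 0.35 and 0.06) lay between. Masp1, a serine protease of the lectin pathway of complement, differed by 1.31 ± 0.21 (adjusted p = 0.0129). S100a11, a calcium-binding protein of activated glia and macrophages (1.40 ± 0.37, adjusted p = 0.0479), was at 1.18, 1.06 and 0.18 against -0.36, -1.11 and -0.31, and imipramine array 3 lay nearest to Zoloft. In vessel genes 2 of 24 passed (8.33%, against 4.68% of all genes with a symbol). They were Emcn, endomucin of capillaries and veins (1.31 ± 0.30, adjusted p = 0.0328), and Rgs5, a pericyte marker (0.74 ± 0.19). Matrix genes had 0 of 28 passing, with Mmp12, macrophage elastase, at 3.71 ± 1.22 (adjusted p = 0.089). Mmp12 was above background on only 1 Zoloft array, so the size of this difference is uncertain. No group but imipramine had it above background on all its arrays, so it was kept through the group in which it was high.

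Markers of neighbouring tissue varied between single arrays. The choroid plexus mean was 0.74, 0.96 and -2.47 on the imipramine arrays and -0.23, 0.39 and -2.62 on the Zoloft arrays, and its 9 measured genes had 0 passing. Ttr, transthyretin, the main product of the choroid plexus, was at 6.63, 6.69 and 0.79 against 6.11, 6.65 and 0.78, a difference of 0.19 ± 2.68. Array 3 of each drug was low in Ttr, so the 2 groups were alike in this. Its summed level over the list ran from 2.13 to 6.91 after imipramine and from 1.80 to 6.80 after Zoloft. Of 7 ependymal genes, 1 passed, Tmem212 (1.16 ± 0.26, adjusted p = 0.0325), with a median of 0.70. Dynlrb2, a dynein chain of cilia, passed at its dimmer probe (1.36, adjusted p = 0.0468, against 1.26 and 0.0721 at the brighter), where it was at -1.07, -1.22 and -2.17 against -2.36, -2.63 and -3.56. The ependymal mean was higher on imipramine arrays 1 and 2 (-1.52 and -1.61) than on array 3 (-2.28), which lay among the Zoloft arrays (-2.22, -2.60 and -2.92). Blood genes (7 measured), meningeal genes (10) and neuron markers (13) had 0 passing, with medians of -0.17, 0.64 and 0.17. The part of these cell types in the results was not tested.

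Very few genes were lower after imipramine than after Zoloft. Tpbg, a membrane glycoprotein that dampens Wnt signalling, was at -3.91, -3.57 and -3.48 after imipramine and at -2.65, -2.78 and -2.14 after Zoloft (-1.13 ± 0.21, adjusted p = 0.0199). Prozac (-3.50), TBI (-3.37) and Sham (-3.17) lay near imipramine, so here too Zoloft stood apart, by 0.84 against TBI (adjusted p = 0.076). Prozac was below Zoloft by -0.98 (adjusted p = 0.034).

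Pdyn, the precursor of the dynorphin peptides of dentate granule cells, was at -0.51, -0.27 and -0.62 after imipramine and at 0.66, 0.50 and -0.02 after Zoloft (-0.85 ± 0.22, adjusted p = 0.0475). In this gene imipramine stood apart. TBI was at 0.55, Sham at 0.49 and Prozac at 0.42, and imipramine was lower than TBI by -1.02 (adjusted p = 0.033). The list of hippocampal neuropeptides had 1 of 27 passing, Pdyn, with a median of -0.04. Penk, the enkephalin precursor, differed by -0.92 ± 0.34 (adjusted p = 0.127), and Gal, galanin, lay on the other side (1.06 ± 0.28, adjusted p = 0.0504, at its brighter probe and 1.07 ± 0.25, adjusted p = 0.035, at its dimmer one).

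The other named genes lower after imipramine were dim. Pde11a, a phosphodiesterase of the ventral hippocampus (adjusted p = 0.0259), and Sptb, erythrocyte beta-spectrin (adjusted p = 0.0458), were above background on 0 imipramine and 2 Zoloft arrays, so no exact difference is given. Cdh23, a cadherin (-1.42 ± 0.37, adjusted p = 0.0461), was above background on 2 imipramine and 3 Zoloft arrays. The remaining 2 probes were left without a symbol by the table used and differed by -0.73 and -1.61. Slc6a5, the glycine transporter of inhibitory axons (-1.93, adjusted p = 0.177), and Apold1, an early response gene of vessels (-1.21, adjusted p = 0.098), did not pass.

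Some of the transporters and receptors looked up by name were below the range of the arrays, while others were measured. Slc6a4, the serotonin transporter, Adra1a, an alpha-1 adrenergic receptor, and Htr2a, a serotonin receptor, were above background on 0 of the 14 arrays, and Hrh1, the histamine receptor, on at most 3. Slc6a2, the noradrenaline transporter, differed by -0.19 ± 0.20 (adjusted p = 0.60). Chrm1, the muscarinic receptor of pyramidal cells, differed by 0.91 ± 0.37 (adjusted p = 0.16). Htr1a, the inhibitory serotonin receptor of hippocampal neurons, was at -3.95, -3.79 and -3.98 after imipramine and at -4.47, -4.41 and -5.59 after Zoloft (0.92 ± 0.25, adjusted p = 0.0512). Its groups did not overlap, but it did not pass, and Zoloft array 3 was far below the other 2. Prozac was above Zoloft for Htr1a (1.18, adjusted p = 0.029).

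Over whole lists, 0 of 9 serotonin genes passed (median 0.36, with 5 higher and 1 lower without overlap), 0 of 11 noradrenaline and dopamine genes (median -0.12, with 2 higher and 3 lower without overlap) and 0 of 10 histamine, muscarinic and sigma genes (median 0.04, with 1 higher and 2 lower without overlap). Over all genes with a symbol 27.5% did not overlap. Maob, which breaks down monoamines, differed by 0.58 (adjusted p = 0.0587) and Htr2b by 1.27 ± 0.51 (adjusted p = 0.15). Htr2c, a serotonin receptor abundant in the choroid plexus, differed by 0.17 ± 0.54 and turned below 0 with other scalings. Tmem97, the sigma-2 receptor, differed by 0.46 (adjusted p = 0.0836) and Drd2 by -0.76 (adjusted p = 0.17).

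Ion channels and transmitter receptors gave single passing genes. Cacnb2, a calcium channel subunit, differed by 0.63 ± 0.16 (adjusted p = 0.0432), the only one of 24 sodium and calcium channel genes to pass, and was above background on only 1 Zoloft array. Gabra5, the extrasynaptic GABA-A receptor subunit of the hippocampus, was at -1.71, -1.81 and -1.93 against -2.22, -2.27 and -2.24 (0.43 ± 0.11, adjusted p = 0.0453), the only one of 16 GABA genes, and its Prozac mean (-1.60) and Sham mean (-1.62) lay on the imipramine side. None of 27 potassium and HCN channel genes and none of 26 glutamate genes passed, with medians of 0.01 and 0.00. These medians lie below that of all probes.

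Among the neurotrophin, CREB and growth signalling genes, which had a median of 0.14, Akt2, a kinase downstream of growth factor receptors, passed (0.83 ± 0.22, adjusted p = 0.0479). Bdnf, the neurotrophin often studied with antidepressants, differed by -0.51 ± 0.47 (adjusted p = 0.55), and Creb1 by 0.42 ± 0.15 (adjusted p = 0.11). Immediate early genes had 0 of 19 passing and a median of -0.30. Their mean was -0.14 on Zoloft array 3, far above the other 2 Zoloft arrays (-1.67 and -1.83) and the imipramine arrays (-1.48, -1.56 and -1.71), so 1 array set the difference.

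Glucocorticoid-responsive genes lay on the Zoloft side without passing. Of 20 measured none passed, and the median was -0.33, or -0.51 relative to all probes. The mean was -0.08, -0.28 and -0.37 on the imipramine arrays and -0.13, 0.11 and 0.40 on the Zoloft arrays, which overlap. Errfi1, a brake on growth factor receptors (-0.75 ± 0.25, adjusted p = 0.0895), Ddit4, a stress inhibitor of mTOR (-0.63, adjusted p = 0.104), and Fkbp5, the chaperone that tunes the glucocorticoid receptor (-0.62, adjusted p = 0.116), were the nearest to passing. Prozac minus Zoloft had a median of -0.48 over this list, and imipramine minus Prozac 0.13.

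In the remaining lists the counts were small. Cholesterol synthesis had 1 of 29 passing, Fdps, which makes farnesyl diphosphate (0.54 ± 0.14, adjusted p = 0.0466, and 0.38 without passing at its other probe). The respiratory chain had 2 of 45, Ndufs8 (0.61) and Atp5f1b (0.43), and the ribosomal proteins 1 of 46, Rps4x (0.53). Apoptosis had 1 of 27, Capns1, the small subunit of calpain (0.66 ± 0.13, adjusted p = 0.0232), and drug metabolism 1 of 26, Ephx1, microsomal epoxide hydrolase (0.97 ± 0.26, adjusted p = 0.0489). None passed among myelin genes (19 measured, median 0.37, with Cnp at 1.01 and adjusted p = 0.053), Nrf2 and metal response genes (21), circadian genes (15), subfield markers (21) and cortex, striatum and thalamus markers (12). Over the 37 lists chosen by role, 27 of 753 measured entries passed, where 478 of 10220 genes with a symbol did (4.68%). The lists together thus passed no more often than genes at large. Under median centring none of their members passed, but only 0.312% of all kept probes did, so this 0 does not set the lists apart.

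**Figure D5:**
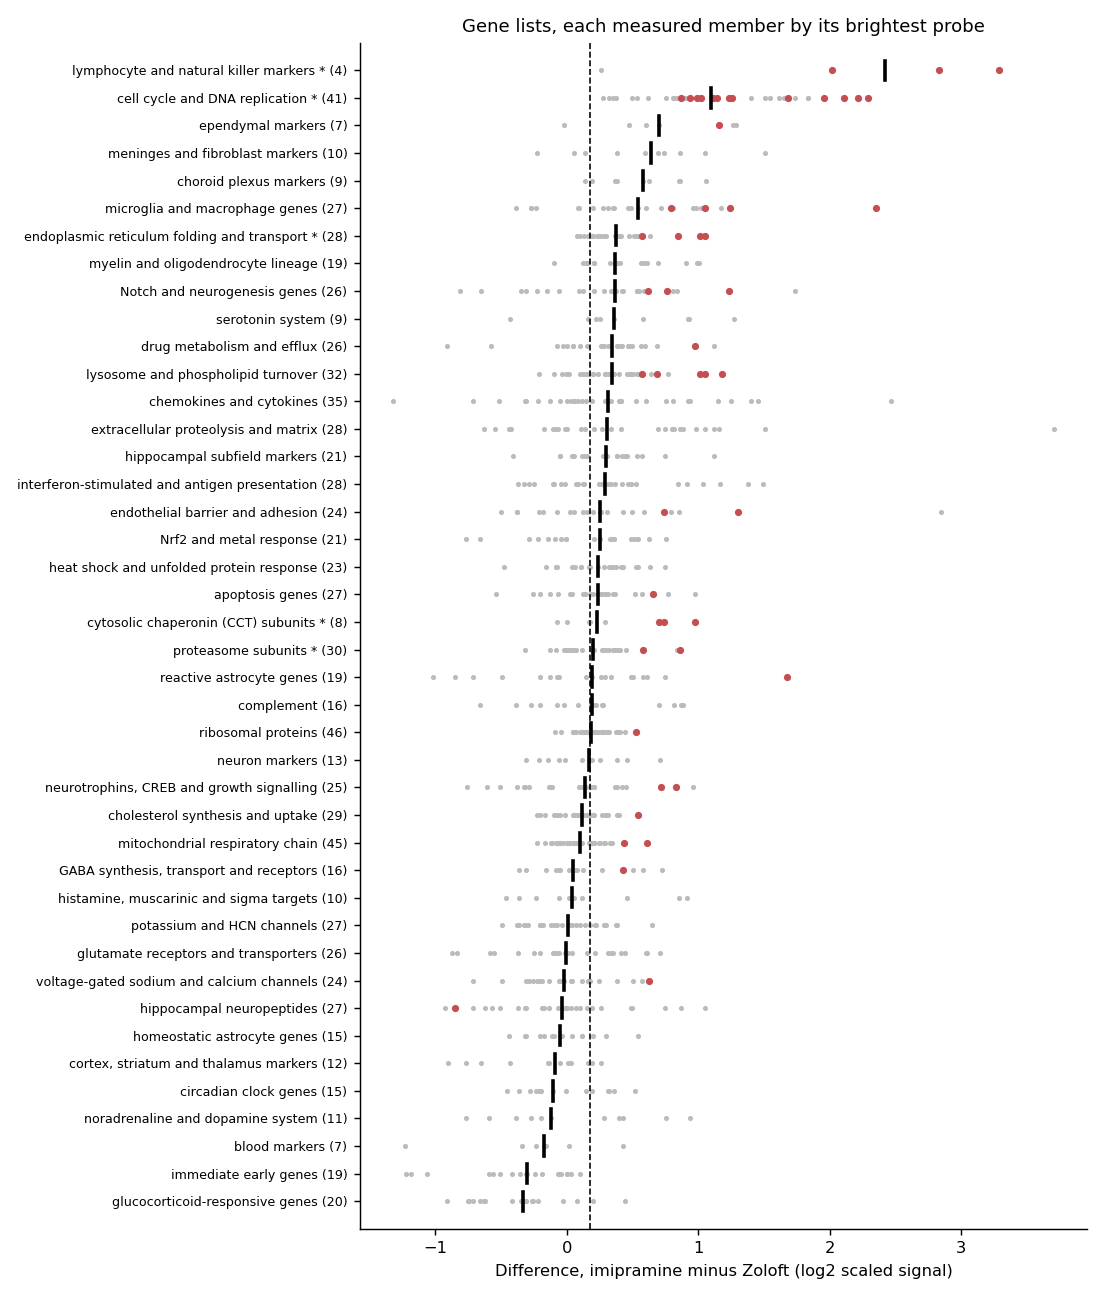
Log2 difference between imipramine and Zoloft (x axis) for the measured members of 42 lists (rows, an asterisk marks lists added after the values were seen), with members in grey, passing members in red, list medians as black bars and the median of all probes, 0.18, as a dashed line. The cell cycle list, with a median of 1.09, and the lymphocyte list, with 2.42, lie farthest to the right.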

How the data were processed

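Total RNA of whole hippocampus was amplified from its poly(A) RNA by T7 transcription after oligo-dT priming and hybridised to 1-colour Agilent rat arrays, scanned with Agilent Feature Extraction 11.5.1.1. The authors deposited scanner intensity values with their background and outlier flags, and a series table of the same arrays as linear intensity, each array divided by 1 constant (array medians 0.0810 to 0.0897, lowest value 0.01, genes not centred), which was taken to log2 as an alternative. Here the deposited processed intensity was averaged over the unflagged spots of a probe, divided by the array's 75th percentile over its detected probes, and taken to log2, after the study's methods. A probe counted as above background when more than 0.5 of its spots were flagged so, and was kept when 1 or more groups had it above background on all their arrays (17322 of 30367). Symbols came from the RefSeq table of the GRCr8 assembly, matched by accession (18643 probes). limma 3.58.1 (R 4.3.3) fitted the group means of all 14 gene expression arrays, with Benjamini-Hochberg adjustment over all kept probes and a threshold of 0.05, two-sided. In lists a gene is its brightest probe. Named genes were, in each direction, the 15 largest passing differences above background on all 6 arrays without overlap (filled to 8 where fewer passed), the 5 largest bounds, every passing list member or the 3 lowest p of a list, and 12 genes fixed by name, besides the cell cycle, chaperone, proteasome and lymphocyte genes and examples of several probes, which were chosen after their values were seen. One gene that this rule names is not reported here. The gene lists and comparisons were chosen with earlier results of these data known. On simulated data for this comparison 70 of 100 probes changed by 1 on the log2 scale and 95 of 100 changed by 2 were recovered, with 6 false calls among 17122. The simulation drew each probe independently, with no shift shared across an array or slide row, so these rates need not hold for the real arrays. The number of arrays limits the precision. The normexp alternative used the median spot signal with an offset of 50. The microRNA arrays were not used here.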

Additional observations from a re-analysis of the deposited data

How the results depend on the processing

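The 917 passing probes (910 higher after imipramine, 7 lower) and the 27 passing list members moved with the scaling. They became 143 (139 and 4) and 6 with normexp, 137 (114 and 23) and 2 with quantile normalization, 78 (68 and 10) and 0 with the 75th percentile of all probes, 54 (45 and 9) and 0 with median centring, 79 (67 and 12) and 0 with the authors' series table, and 55 (53 and 2) and 0 with no filter on dim probes. Under quantile normalization, the percentile of all probes, median centring and the series table the share of passing probes that was higher was 83.2%, 87.2%, 83.3% and 84.8%, against 99.2%, and 44 probes passed in the main setting and all 4 of these, 42 higher and 2 lower. The median of all probes lay between -0.05 and 0.00 under those 4, where it was 0.18. With probes above background on all 6 arrays 856 passed (853 and 3), with outlier spots kept 912, and with a trended, robust spread 838. The slide as a block gave 545 (541 and 4) and 10 list members. The 6 arrays alone gave 0 (0 and 0) and 0, with 4128 at an unadjusted p under 0.05. The methods' t-test with its fold limit of 1.2 gave 3047 (2870 and 177) without adjustment and 0 (0 and 0) after Benjamini-Hochberg. Choosing the probe with the lowest p gave 35 list members.

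Leaving out 1 of the 6 arrays gave 0 to 1306 probes, 0 to 1292 higher, 0 to 14 lower and 0 to 44 list members. The slide row, an alternative chosen after seeing the data, left 1 probe (0 higher, 1 lower, an unnamed probe at -3.96, adjusted p = 0.00801) and 0 list members as a block with the slide, with 938 at an unadjusted p under 0.05. The arrays of the second row alone, 1 against 3, left 0 and 0, with 778 at an unadjusted p under 0.05.

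The replicate numbers were checked for pairing, and same-numbered arrays of the 2 groups correlated in their deviations at -0.0902, 0.0901 and 0.0895, so the numbers do not pair the arrays. With the replicate block 240 probes passed (237 and 3) and 2 list members.

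Signs turned for a few genes, and the cause was not tested. With normexp Adrb3 was at -0.20, Creb1 -0.14, Hey1 -0.0273, Canx -0.0212 and Chek2 -0.0113. With the slide row as a block, and likewise in the second row alone, Ttr was at -3.72, Htr2c -0.77, Enpp2 -0.72 and Calml4 -0.50. Htr2c was at -0.0214 with quantile normalization, -0.0397 with the percentile of all probes, -0.0584 with median centring and -0.0379 with the series table, and Ttr at -0.0141 with the percentile of all probes, -0.0328 with median centring and -0.0123 with the series table. Leaving out 1 array moved Bdnf between -0.93 and 0.24, Htr2c between -0.23 and 0.63, Slc4a1 between -0.62 and 0.13 and Ttr between -1.67 and 2.15.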
